A study of Mus musculus with 6 samples.

Results

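Tac2, the gene of the neuropeptide neurokinin B, and the tachykinin receptor genes Tacr1 and Tacr3 are 3 of the 32285 genes in a spatial transcriptomics study of the ageing mouse brain. Coronal sections were cut from male C57BL/6J mice aged 6 months (young), 18 months (middle) and 21 months (old), with 2 males at each age and no genetic or drug treatment. Each of the 6 sections lay on 1 Visium capture area, a slide field whose barcoded spots capture the messenger RNA above them and count molecules by unique molecular identifiers (UMIs). Both young sections, middle 1 and old 1 shared slide 1, and middle 2 and old 2 shared slide 2. A spot covers several cells, so values are per spot or per section and not per cell. Tac2 was chosen by its summed UMIs in whole sections, which were higher at the older ages in these same sections. Its age differences are therefore given as a description, without a test. The receptors were added as the binding partners of its family, and their age differences were tested.

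Tachykinins are short peptides that act on G protein-coupled receptors through Gq and phospholipase C. Neurokinin B prefers the neurokinin 3 receptor, encoded by Tacr3, and substance P, a product of Tac1, prefers the neurokinin 1 receptor, encoded by Tacr1. In the brain neurokinin B is best known from kisspeptin neurons of the arcuate hypothalamus, where it takes part in the pulsed release of gonadotropin-releasing hormone, and the gene is also strongly expressed in the medial habenula, a small epithalamic nucleus that projects to the interpeduncular nucleus. Tac2 (ENSMUSG00000025400) lies on chromosome 10 from 127724478 to 127731768 on the plus strand of GRCm38. Tacr1 (ENSMUSG00000030043) lies on chromosome 6 from 82402334 to 82560104, and Tacr3 (ENSMUSG00000028172) on chromosome 3 from 134829007 to 134934579, both on the plus strand.

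What makes these peptides a family is visible in the messenger RNA that the spots capture. Below are the last 10 codons of neurokinin B and of the 2 Tac1 peptides, 30 bases each, read from the GENCODE M21 transcripts 5′ to 3′. Capitals mark the last 5 codons, which encode the shared ending phenylalanine, any residue, glycine, leucine, methionine.
Tac2, neurokinin B: gacatgcacgacttcTTTGTGGGACTTATG
Tac1, substance P: cccaagcctcagcagTTCTTTGGATTAATG
Tac1, neurokinin A: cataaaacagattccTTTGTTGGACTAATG

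Sections held 2573 to 2973 spots (16741 in all) and 60938938 to 77557934 UMIs, and the median spot fell from 30093 and 26305.5 UMIs in young to 21766 and 20370 in old sections. The plane of cutting was not the same throughout. Pmch, the melanin-concentrating hormone gene of the lateral hypothalamus, was at 0.64 and 0.71 CPM (counts-per-million over all UMIs of the section or region) in young 1 and old 1, against 185 to 929 CPM in the other 4 sections. Oxt, the oxytocin gene, stood at 70.0, 23.6 and 514 CPM in young 1, middle 1 and old 1. In the other sections it was at 0.43 to 0.86 CPM. Young 1 also stood apart by 10 habenula-like spots, against 36 to 52 elsewhere. It had 16 and 6 spots in the hippocampal formation clusters led by Cabp7 and by C1ql2, against 76 to 151 and 73 to 103 elsewhere. Young 2 had 79 spots in the Baiap3-led cluster described below, against 122 to 177 elsewhere. These values matter for each result on Tac2, which is concentrated in small nuclei, and their part in the differences between ages was not tested.

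Tac2 was higher in every older section than in either young one. Young sections had 24.3 and 27.7 CPM, middle sections 39.8 and 39.9 CPM, and old sections 49.2 and 46.5 CPM, so the 3 ages did not overlap. The fitted log2 difference between old and young was 0.83 (SE 0.059, n = 2 against 2), or 1.78-fold, and that between middle and young was 0.60 (SE 0.059). Old against middle gave 0.24 (SE 0.058). These contrasts share sections and an estimate of the spread, and the same values chose the gene, so their SE values are not a test. Within slide 1 alone, old 1 was at 49.2 CPM against 24.3 and 27.7 CPM for the young sections, whereas slide 2 held no young section. In bulk sums of this kind, more cells of a type and more RNA per cell cannot be told apart.

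Neither receptor passed the test at any age. Tacr1 stood at 4.50 and 3.02 CPM in young, 4.03 and 5.50 CPM in middle and 4.71 and 4.30 CPM in old sections, and the 3 ages overlapped. Its log2 difference between old and young was 0.21 (SE 0.23, edgeR adjusted p = 0.746). In that comparison edgeR called 29 of 17673 genes, or 0.164%. Tacr3 stood at 2.56 and 1.61 CPM in young, 3.37 and 3.65 CPM in middle and 2.58 and 2.40 CPM in old sections. Both middle sections lay above the other 4, but the log2 difference between middle and young of 0.72 (SE 0.21) had an adjusted p of 0.489 in edgeR, where 0.0679% of genes were called. Old against young gave 0.20 for Tacr3 (SE 0.22, adjusted p = 0.749). Between old and middle the value was -0.52 for Tacr3 and -0.11 for Tacr1 (edgeR adjusted p = 1.0 for both). No gene at all was called there (0.0%) by edgeR or DESeq2, and 361 of 17673 genes (2.04%) had an unadjusted edgeR p under 0.05. Without young 2, the old-against-young values turned to -0.075 for Tacr1 and -0.12 for Tacr3.

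**Figure D1:**
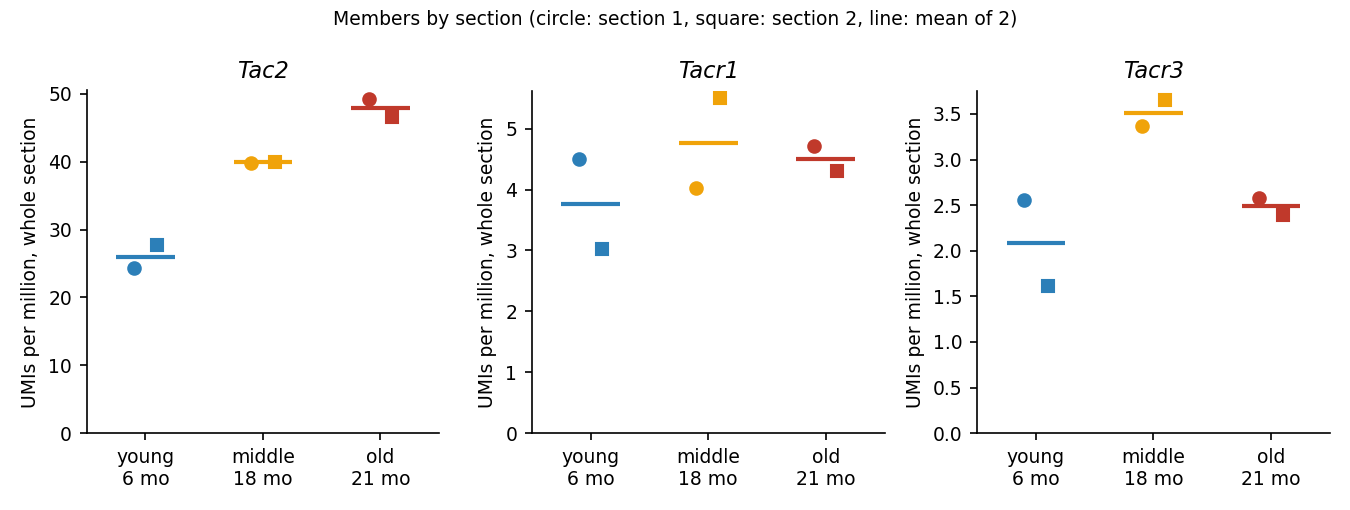
Level of Tac2, Tacr1 and Tacr3 in CPM of the whole section (vertical axis, from 0) by age. Circles are section 1, squares section 2 and lines the mean of the 2 sections; Tac2 runs from 24.3 in young 1 to 49.2 in old 1 without overlap between ages, while the receptors overlap.

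Before thinning, older sections differed from young ones more in how much Tac2 each positive spot held than in how many spots were positive. Spots with at least 1 Tac2 UMI numbered 541 and 570 in young, 602 and 685 in middle and 658 and 647 in old sections, which is 20.3% to 24.5% of spots. A positive spot held 3.45 and 3.77 UMIs in young, 5.05 and 4.39 in middle and 5.16 and 4.38 in old sections, a ratio of old to young of 1.32. Because older spots were shallower, every spot was also thinned to 10000 UMIs, which left out 130 to 350 spots a section. After thinning, 11.3% and 11.7% of young, 12.4% and 14.9% of middle and 14.3% and 15.2% of old spots kept a Tac2 UMI, a difference of 3.24 percentage points between the old and young means, and the old sections did not overlap with the young ones. UMIs per positive spot were then 2.12 and 2.26 in young and 3.22 and 3.04 in old sections. Spots with at least 20 Tac2 UMIs numbered 12 and 13 in young, 29 and 30 in middle and 39 and 31 in old sections. As a background level, 3.95% of spots were positive in the larger white matter cluster, where neuronal cell bodies are few. It had 1444 spots at a median depth of 11098.5 UMIs (clusters are described below). A smaller white matter cluster had 357 spots at a median of 16727 UMIs. By mean Tac2 level it ranked higher, at 15 against 21, and 1 of its spots held at least 20 Tac2 UMIs.

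Tacr1 and Tacr3 were thinly spread, and the fullest spot of any section held 10 UMIs of Tacr1 and 9 of Tacr3. Tacr1 was found in 172 to 286 spots a section with 1.37 to 1.39 UMIs per positive spot on average at each age. Thinned to 10000 UMIs, 4.28% and 2.92% of young, 3.44% and 4.68% of middle and 4.38% and 4.26% of old spots were positive for Tacr1 (exact permutation test over the 3 ages, p = 0.733, adjusted over 2 tests 0.733). Tacr3 was found in 91 to 211 spots a section. Its thinned shares were 2.60% and 1.71% in young, 3.83% and 3.48% in middle and 2.52% and 2.27% in old spots (exact permutation p = 0.2, adjusted 0.4), and both middle sections again lay highest. With at least 2 UMIs required, or with spots thinned to 5000 UMIs, the exact permutation p for Tacr3 was 0.067. With 6 sections this exact permutation test cannot go below p = 0.067.

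To locate the 3 genes, spots were clustered without using them or Gpr151, a receptor gene typical of the habenula. The clearest Tac2 site was a cluster of 230 habenula-like spots led by Gng8, Nwd2, Chrna3, Lrrc55 and Pou4f1. There Tac2 reached 997 and 674 CPM in young, 883 and 681 CPM in middle and 1115 and 842 CPM in old sections, a mean of 865 ± 174 CPM (SD, n = 6). These 230 of 16741 spots held 33.0% of all Tac2 UMIs. The next cluster, of 870 spots, was led by Baiap3, Hap1, Nts, Ngb, Zcchc12 and Gpr101, in that order. Its 50 leading genes held 5 markers of hypothalamus and 5 of medial and extended amygdala, so it was left unnamed. Among the first 10 were 4 hypothalamic markers, and Nts and Gpr101 were the amygdala markers there. This cluster averaged 133 ± 73 CPM and held 21.9% of UMIs. Habenula-like spots lay above it by more than the spread of either. From that rank down, no cluster differed from the next by more than the spread between sections. The hypothalamus cluster followed with 61.9 ± 33.5 CPM, and a hippocampal formation cluster led by Neurod6 and Hpca stood last with 1.64 CPM.

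**Figure D2:**
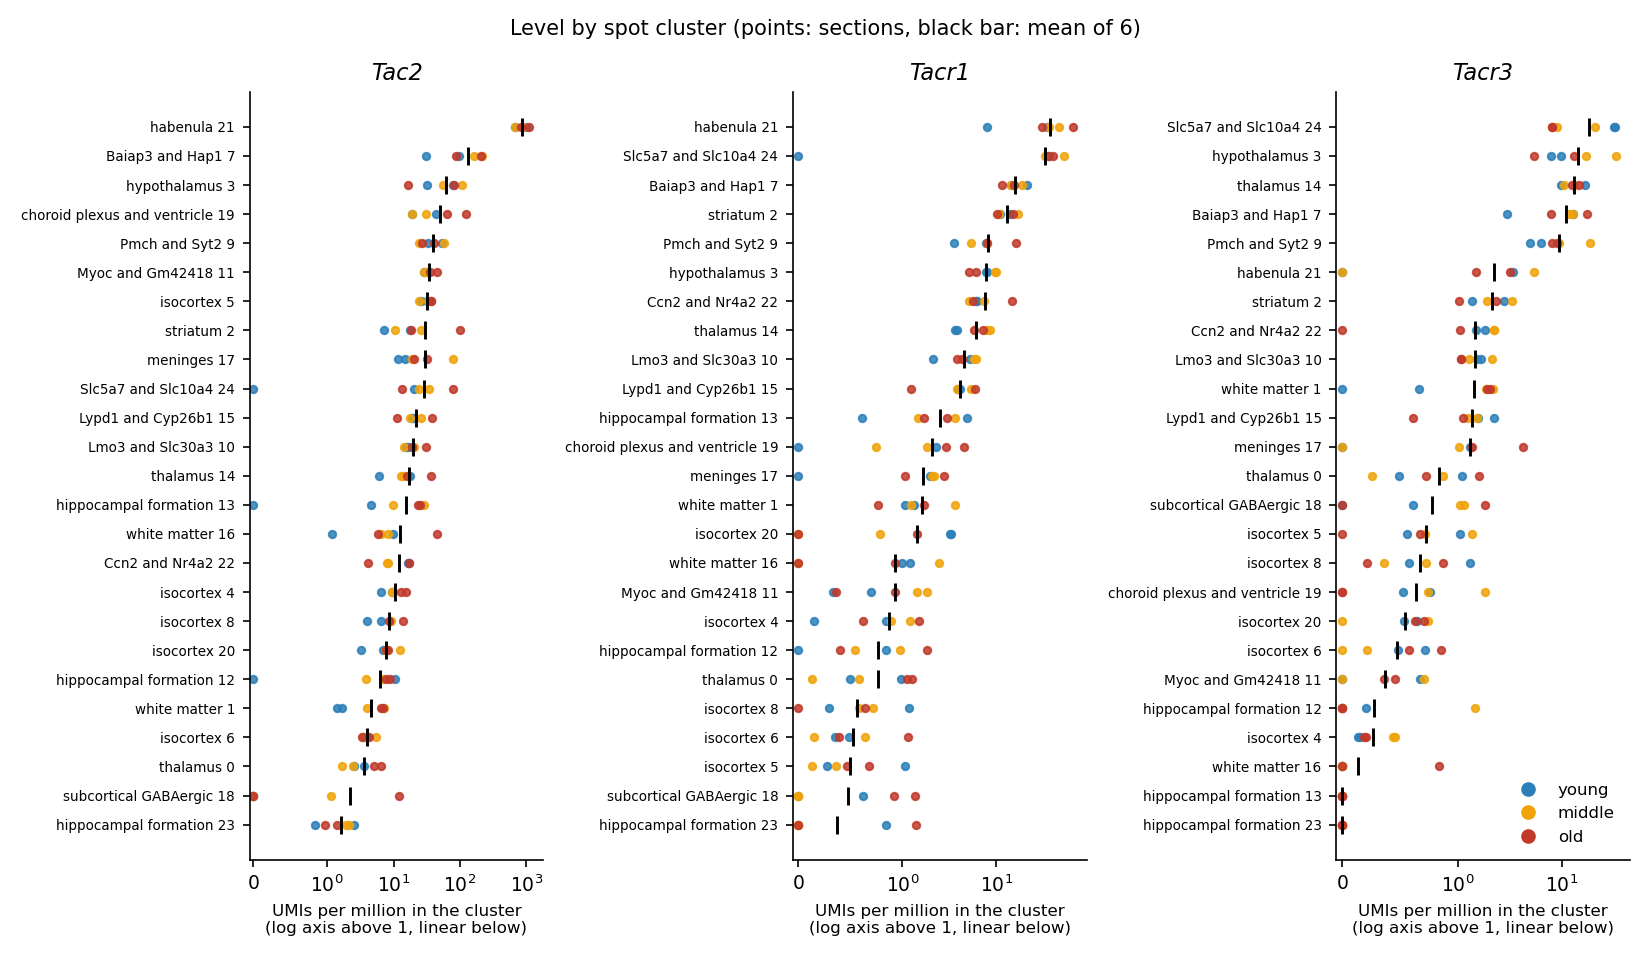
Level of Tac2, Tacr1 and Tacr3 (horizontal axis, CPM within the cluster, logarithmic above 1) in 25 spot clusters ordered by mean; numbers after names are cluster numbers, unnamed clusters carry their leading genes, points are sections coloured by age and black bars the mean of 6. Tac2 peaks in habenula-like spots at 865, Tacr1 in the same spots at 37.0 and Tacr3 in cholinergic-gene spots (18.3) and hypothalamus (14.4).

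Within these habenula-like spots Tac2 went with genes of the medial habenula. Spot by spot within a section, its rank correlation with Chrna3, which encodes the nicotinic receptor subunit abundant in medial habenula neurons, was 0.55 to 0.84 over the 6 sections (10 to 52 spots each). For Chrnb4, the partner subunit, it was 0.50 to 0.81, and for the choline transporter gene Slc5a7 0.47 to 0.72. It was 0.20 to 0.72 for Gpr151, which marks lateral as well as medial habenula neurons. These are descriptions across spots of shared libraries. In the 86 habenula-like spots with at least 5 Chrna3 UMIs, Tac2 stood at 1301 and 1401 CPM in young, 1406 and 1333 CPM in middle and 1460 and 1441 CPM in old sections. Old sections were 1.07 times young ones there. The number of such spots varied, with 4 and 14 in young, 16 and 11 in middle and 25 and 16 in old sections. Their median depth was 56500.5 and 41784 UMIs in young, 43426.5 and 23866 in middle and 30401 and 22108.5 in old sections. The minimum of 5 Chrna3 UMIs was applied without thinning, so it selected spots at unequal depth. The part of depth in their level and number was not tested. In the other 144 habenula-like spots Tac2 was lower in each section, from 205 CPM in young 2 to 637 CPM in young 1, with no order by age. The split at 5 UMIs was chosen after the data had been seen, and the range over sections depended on it, being 1301 to 1460 CPM at 5 UMIs, 1194 to 1597 CPM at 3 UMIs and 947 to 1666 CPM at 10 UMIs, with young 1 lowest at each.

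**Figure D3:**
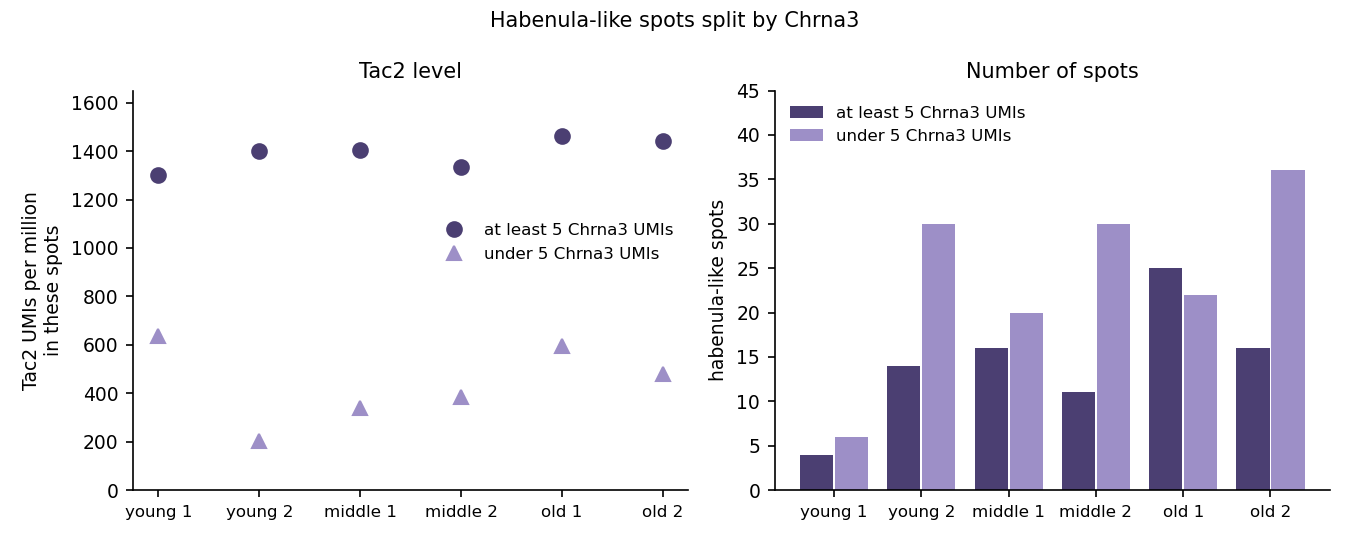
Left, Tac2 in CPM in habenula-like spots with at least 5 (circles) or under 5 Chrna3 UMIs (triangles) for each section. Right, the number of such spots as bars from 0; at this minimum the level in Chrna3-rich spots lies between 1301 and 1460 and their number runs from 4 in young 1 to 25 in old 1.

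Over the whole habenula-like cluster the fitted log2 difference in Tac2 between old and young was 0.17 (SE 0.22), against 0.83 for whole sections. Its Tac2 UMIs numbered 380 and 993 in young, 1090 and 630 in middle and 1490 and 793 in old sections. Expressed as CPM of the whole section, that is, Tac2 UMIs of these spots over all UMIs of the section, habenula-like spots gave 4.94 and 12.8 in young, 14.3 and 8.37 in middle and 21.6 and 13.0 in old sections. With these spots left out, a setting added after the data had been seen, whole sections differed by 0.79 (SE 0.17).

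Gpr151 as the sole guide to the habenula gave a more mixed set of spots. At least 1 Gpr151 UMI was found in 41, 111, 79, 134, 139 and 132 spots from young 1 to old 2, or 636 in all, of which 30.8% were habenula-like. Conversely, 85.2% of habenula-like spots had Gpr151. Tac2 in Gpr151 spots was at 235 and 269 CPM in young, 388 and 204 CPM in middle and 418 and 362 CPM in old sections, a log2 difference of 0.57 between old and young (SE 0.36). Tac2 varied strongly with the number of Gpr151 UMIs. Spots with 5 or more had 635 to 1207 CPM and spots with 2 to 4 had 27.9 to 435 CPM. Spots with 1 had 28.0 to 159 CPM and spots with none had 15.0 to 32.2 CPM. The order was not kept in middle 1, where spots with 2 to 4 had 27.9 CPM and spots with 1 had 116 CPM. With at least 2 or at least 5 Gpr151 UMIs required, the old-against-young value shrank to 0.16 and 0.14. Outside Gpr151 spots it was 0.72 (SE 0.17), with 19.7 and 15.0 CPM in young, 26.8 and 31.8 CPM in middle and 27.0 and 32.2 CPM in old sections, where neither older age overlapped with young.

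The unnamed Baiap3-led cluster, with Nts and Gpr101 among its leading genes, held the next largest share, unevenly over the sections. Nts encodes neurotensin, and Gpr101 an orphan receptor known from hypothalamus and amygdala. Tac2 was at 96.6 and 31.1 CPM in young, 214 and 165 CPM in middle and 207 and 86.5 CPM in old sections, so old overlapped with young. The cluster had 177 and 79 spots in young, 168 and 167 in middle and 157 and 122 in old sections. The part of these numbers in its Tac2 UMIs was not tested. Its Tac2 UMIs numbered 621 in young 1 but 63 in young 2, and 786 in old 1 but 285 in old 2. Spots with at least 20 UMIs were as uneven, with 4 and 0 in young, 10 and 13 in middle and 10 and 2 in old sections. The log2 difference between old and young was 1.02 (SE 0.76), and it ran from 0.25 to 2.22 with 1 section left out. Peptide genes of amygdala neurons had no common relation to Tac2 spot by spot. Penk (preproenkephalin) and Nts were positively correlated with it in 6 of 6 sections, at 0.039 to 0.46 and 0.040 to 0.39, whereas Cartpt was so in 0 of 6 (-0.35 to -0.008) and Sst and Ucn3 in 1 of 6 each.

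The hypothalamus cluster, led by Hcrt, Pmch, Avp and Oxt, showed no common direction with age. Tac2 was at 32.1 and 79.1 CPM in young, 56.3 and 106 CPM in middle and 16.4 and 81.6 CPM in old sections, and the difference between old and young was -0.18 (SE 1.03) on the log2 scale. The lowest values were those of young 1 and old 1, the sections that also nearly lacked Pmch and had Hcrt at 1.07 and 0.68 CPM. Oxt was highest in these same sections, at 70.0 and 514 CPM of the whole section. The genes that led the cluster were thus not high in the same sections. Without young 2 the difference turned to 0.57, and without old 1 to 0.52. Kiss1, the defining gene of the arcuate neurons known for neurokinin B, was nearly absent at 0.033 to 0.27 CPM of whole sections, so these spots cannot stand for that population. Spot by spot, Tac2 correlated with Pdyn, the dynorphin gene of those neurons, at -0.24 to 0.24, and with Hcrt, the orexin gene, at 0.042 to 0.44.

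**Figure D4:**
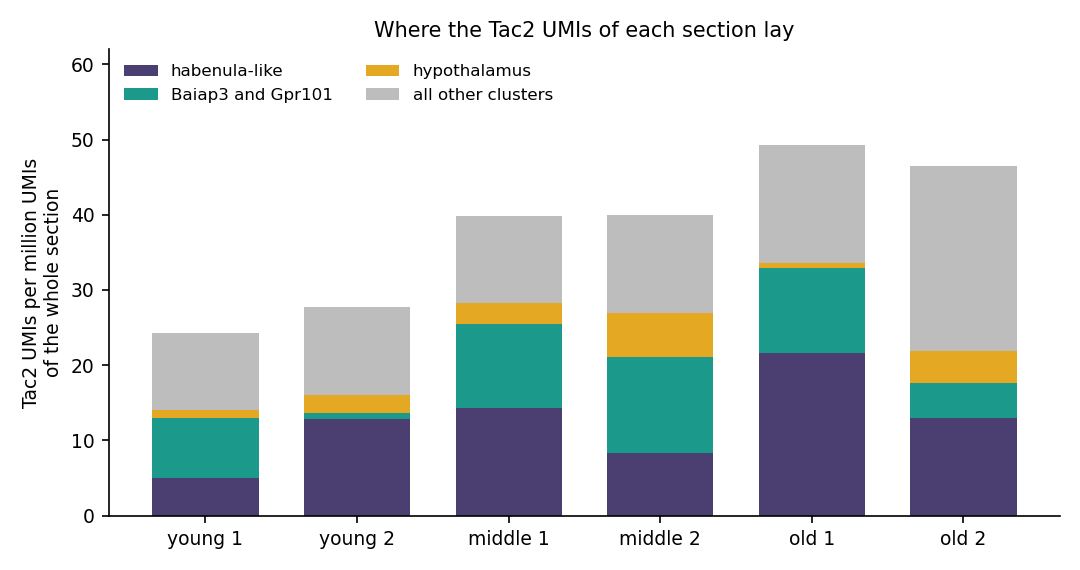
Tac2 in CPM of the whole section (bars from 0, 1 bar per section) split by where the spots lay. Young 1 and young 2 reach similar totals of 24.3 and 27.7 with habenula-like parts of 4.94 and 12.8, and old 2 has the largest of these 6 parts (24.6) in all other clusters.

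The clusters other than habenula-like, hypothalamus and the Baiap3-led one together gave 10.3 and 11.7 CPM of the whole section in young, 11.5 and 13.0 in middle and 15.6 and 24.6 in old sections. In old 2, striatum stood at 100 CPM, with 7.27 to 25.5 CPM in the other 5 sections, and 5 of the 6 striatal spots with at least 20 Tac2 UMIs were in that section. Spots of choroid plexus and ventricle stood at 63.4 and 123 CPM in old 1 and old 2 and at 18.8 to 43.3 CPM in the other 4 sections. In isocortex, where Tac2 was spread over many spots with few UMIs, the level was 11.2 and 11.9 CPM in young, 12.2 and 14.0 CPM in middle and 17.3 and 16.1 CPM in old sections. The ages did not overlap, and the share of isocortex spots with a Tac2 UMI, 18.8% to 26.5%, did.

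Cortical Tac2 came with the genes of a set of inhibitory neurons. The 861 isocortex spots that held a Tac2 UMI were compared with isocortex spots of the same section that held none. Vip, the vasoactive intestinal peptide gene that defines a class of interneurons, was 3.05 to 4.75 times as high in spots with Tac2, and was higher in 6 of 6 sections (165 against 43.0 CPM on average). Crh, the corticotropin-releasing hormone gene, was 2.37 to 3.34 times as high, and Calb2, the calretinin gene, 1.54 to 2.26 times as high, both in 6 of 6 sections. Sst and Pvalb, which mark the other large interneuron classes, were lower in 6 of 6 sections, at 0.62 to 0.96 and 0.60 to 0.76 times. Slc17a7, the vesicular glutamate transporter gene of cortical projection neurons, stood at 0.92 to 0.97 times. Layers differ in these genes, so the comparison was repeated inside the 1 isocortex cluster led by Lamp5 and Vip, in which 45.8% of spots held Tac2. There Vip was still 2.27 to 4.18 times and Crh 2.19 to 3.56 times as high, in 6 of 6 sections, while Lamp5 was at 0.83 to 1.02 times. Calb2 was higher in only 4 of 6 sections there (0.82 to 2.14 times). Pvalb stayed lower in 6 of 6 sections (0.57 to 0.84 times), but Sst was above 1 in 3 of 6 (0.70 to 1.27 times). Slc17a7 stood at 1.01 to 1.07 times, above 1 in 6 of 6 sections. Spots with Tac2 were somewhat deeper, with section medians of 33528 to 44831.5 UMIs against 29624 to 41236.5. The part of depth in these ratios was not tested.

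**Figure D5:**
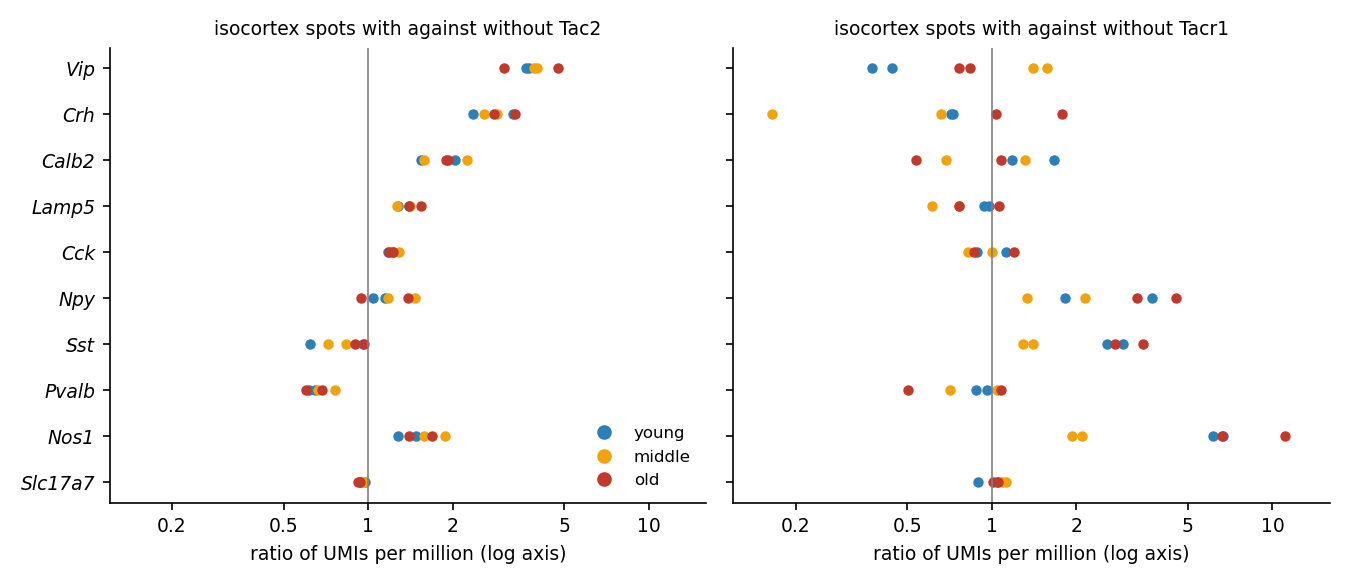
Ratio of a gene's CPM in isocortex spots with a member to that in isocortex spots without it (horizontal logarithmic axis, grey line at 1), with 1 point per section coloured by age, for Tac2 and Tacr1. Vip lies above 3.05 in each section for Tac2, and Nos1, Sst and Npy lie above 1 in each section for Tacr1.

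Tacr1 was sparse in isocortex, at 0.45 to 0.83 CPM, and the 93 isocortex spots that held it had a partly different company. Nos1, the neuronal nitric oxide synthase gene, was 1.93 to 11.1 times as high in them as in the other spots and higher in 6 of 6 sections (27.8 against 5.07 CPM on average, 95 UMIs). Sst was 1.29 to 3.45 times and Npy, the neuropeptide Y gene, 1.34 to 4.52 times as high, both in 6 of 6 sections. Chodl, which with these genes marks a rare long-range inhibitory neuron, was higher in 5 of 6 sections, on 20 UMIs. Vip was higher in 2 of 6 sections. Nos1 was also higher in isocortex spots with Tac2, in 6 of 6 sections at 1.28 to 1.88 times. Npy was so in 5 of 6 sections, at 0.94 to 1.47 times. The comparison for Tacr1 was not repeated inside 1 isocortex cluster. In the 76 isocortex spots with Tacr3, Nos1 was higher in 0 of 6 sections, Sst in 1 and Npy in 4, and Chodl had 0 UMIs.

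Across clusters Tacr1 was highest in the same habenula-like spots as Tac2, at 37.0 ± 18.9 CPM (SD, n = 6). Young 1, with 3 Tacr1 UMIs in 10 spots, had 7.87 CPM, and the other sections had 34.6, 47.0, 36.8, 65.1 and 30.8 CPM from young 2 to old 2. In Chrna3-rich spots the level was 57.1, 68.2, 51.8, 77.1 and 61.9 CPM in those 5 sections, and it was lower in the remaining habenula-like spots of every section. A cluster of 107 spots led by the cholinergic genes Slc5a7 and Slc10a4 followed with 33.0 ± 17.6 CPM, and these 2 clusters lay within each other's spread. That cluster had 3 markers of medial and extended amygdala among its leading genes and was left unnamed by a condition added after it had been seen. Its 14, 6, 18, 19, 28 and 22 spots from young 1 to old 2 held 5, 0, 8, 15, 29 and 5 Tac2 UMIs, or 0.38% of all. The Baiap3-led cluster had 15.9 ± 3.49 CPM and 22.2% of all Tacr1 UMIs, and striatum had 13.0 ± 2.78 CPM and 19.1%. Striatum lay above the next cluster by more than the spread between sections, and no other neighbours in the order did.

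Tacr3 had another map. Its highest means were 18.3 ± 11.6 CPM in the cholinergic-gene cluster, on 29 UMIs, 14.4 ± 10.0 CPM in hypothalamus and 12.9 ± 2.58 CPM in a thalamic cluster led by Calb2 and Gbx2. Hypothalamus and the Baiap3-led cluster held 24.9% and 25.7% of its UMIs. The thalamic cluster was the steadiest of these, with 9.85 to 16.7 CPM over the 6 sections. In habenula-like spots, where Tac2 and Tacr1 peaked, Tacr3 had 0 to 5 UMIs a section and a mean of 2.25 CPM, below the cluster ranked before it by more than the spread between sections. As a background, 1.73% of spots in the larger white matter cluster held a Tacr3 UMI and 1.66% a Tacr1 UMI. In 2 hippocampal formation clusters no Tacr3 UMI was found.

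Tachykinin genes were also looked up in the spots that held a receptor. After thinning to 10000 UMIs, Tac2 was present in 18.2% to 36.8% of Tacr3 spots and in 10.9% to 14.7% of the other spots of the same sections. In Tacr1 spots Tac2 was present in 17.6% to 33.6%, against 10.8% to 14.8% of spots without Tacr1. The gap was smallest in middle 2, at 17.6% against 14.8%. Tac1 was present in 39.1% to 52.9% of Tacr1 spots, against 21.3% to 29.6% of spots without Tacr1. It was also present in 31.8% to 56.6% of Tacr3 spots, against 21.9% to 30.2% of spots without Tacr3. In each of the 6 sections, and for each of these pairs, the share in receptor spots was the higher one. Both genes of a pair were concentrated in some of the same clusters, and shares within clusters were not analysed here.

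Within regions, too, neither receptor passed the test at any age contrast fitted. In Gpr151 spots, where edgeR called 0.21% of genes between old and young, Tacr1 gave a log2 difference of 0.81 (SE 0.41, adjusted p = 0.619) and Tacr3 0.01 (adjusted p = 0.997). In habenula-like spots, where 0.0373% were called, Tacr1 gave 0.77 (SE 0.45, edgeR adjusted p = 0.825) and Tacr3 fell below the filter on low counts. In hypothalamus (0.0323% called) Tacr1 gave -0.53 (edgeR adjusted p = 0.831) and Tacr3 0.04 (adjusted p = 0.994). Hypothalamic Tacr3 stood at 33.1 and 16.9 CPM in middle sections, above the 7.92 and 9.83 CPM of young and the 5.35 and 13.1 CPM of old sections. That difference between middle and young of 1.48 on the log2 scale (SE 0.52) had an edgeR adjusted p of 0.833, in a contrast with 0.0485% of genes called. In the Baiap3-led cluster (0.0236% called between old and young, 0.0393% between middle and young) Tacr1 gave -0.53 and Tacr3 0.36 between old and young (edgeR adjusted p = 0.995 and 0.997).

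The tachykinin pathway list gave no call over whole sections. Of 24 listed genes for ligands, receptors, peptide-processing enzymes, degrading enzymes and Gq signalling, 22 could be tested, and 0 passed in edgeR or DESeq2 between old and young, with 3 (13.6%) at an unadjusted p under 0.05, beside 12.7% of all genes tested. Their median log2 difference was -0.016, beside -0.0023 over all genes tested. Tac1, the substance P gene, stood at 83.3 and 59.4 CPM in young and 53.7 and 91.4 CPM in old sections, and its log2 difference was -0.03 (SE 0.38, edgeR adjusted p = 0.987). Tac4, the hemokinin gene, had 1 to 2 UMIs and Tacr2, the neurokinin 2 receptor gene, 1 to 5 UMIs a section, too few to test. The 3 genes at an unadjusted p under 0.05 were Plcb4 and Plcb1, 2 phospholipase C genes, at -0.26 and -0.24, and Pcsk1n, which encodes an inhibitor of a prohormone convertase, at 0.21 (edgeR adjusted p = 0.246, 0.304 and 0.312). Mme, the gene of neprilysin, which degrades tachykinins, gave -0.08 (edgeR adjusted p = 0.882). Between middle and young, and between old and middle, 0 of 22 passed in either tool. At an unadjusted edgeR p under 0.05 there were 2 (9.09%, beside 7.82% of all genes) and 0 (beside 2.04% of all genes).

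In Gpr151 spots 1 of the 22 genes passed between old and young, beside 0.21% of all genes. Ace, the angiotensin-converting enzyme gene, whose product can also cleave substance P, stood at 15.2 and 17.8 CPM in young, 15.6 and 22.1 CPM in middle and 51.0 and 37.5 CPM in old sections (log2 difference 1.36, SE 0.21, edgeR adjusted p = 0.0137). Ttr and Kl, markers of choroid plexus, were also highest in the old sections of these spots, with Ttr at 14664 and 11237 CPM against 1272 and 2935 CPM in young and Kl at 47.9 and 37.1 CPM against 1.82 and 20.9 CPM. Their part in the Ace result was not tested. Without young 1, young 2 or old 1 the adjusted p was 0.0546, 0.0967 and 0.164. With at least 2 Gpr151 UMIs required it was 0.915, and in habenula-like spots 0.841.

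The genes that accompany Tac2 in its known neurons gave no call over whole sections between old and young. Of 13 medial habenula genes 0 passed in edgeR or DESeq2, 2 had an unadjusted p under 0.05 (15.4%, beside 12.7% of all genes), 11 were higher in old (84.6%, beside 49.3% of all genes) and the median was 0.49, beside -0.0023. The 2 genes were Slc18a3 and Slc5a7, at 0.75 and 0.49. In habenula-like spots 11 of the 13 could be tested and 0 passed in either tool. There 6 had an unadjusted edgeR p under 0.05 (54.5%, beside 6.61% of all genes). Of the 11, 9 were higher in old (81.8%, beside 49.5% of all genes) and the median was 0.37. Several of these genes also named that cluster. In whole sections Gpr151 itself stood at 1.29 and 7.58 CPM in young and 8.39 and 7.91 CPM in old sections, so young 1 was apart from the others. Chrna3 was at 1.95 and 5.56 CPM in young and 8.36 and 5.60 CPM in old sections. Both genes were lowest in young 1, the section with the fewest habenula-like spots, and the part of that number in the whole-section Tac2 difference was not tested. Of 7 genes of arcuate kisspeptin neurons 0 passed in edgeR or DESeq2, with 1 (14.3%) at an unadjusted p under 0.05 and a median of -0.12. Of 10 amygdala peptide genes 0 passed in either tool, with 2 (20.0%) at an unadjusted p under 0.05 and a median of 0.091. Both shares stand beside the same 12.7% of all genes. In the Baiap3-led cluster 1 of these 10, Npy, was lower in middle than in young sections (log2 difference -0.68, edgeR adjusted p = 0.0375, beside 0.0393% of all genes called). With slide as a block the value was -0.71 with an adjusted p of 0.347, and without young 2, middle 1 or middle 2 the adjusted p was 0.0823, 0.639 and 0.770.

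By level across the 25 clusters, the genes most like Tac2 among 11291 were Dnah1 and Mttp, with a Pearson correlation of 0.83 each, then Klhdc8b at 0.80 and Nectin2 at 0.79. Those most like Tacr1 were Zcchc12 at 0.85 and Baiap3 and Nbdy at 0.83. Those most like Tacr3 were Gabrg1, a GABA-A receptor subunit gene, at 0.92, AW551984 at 0.88 and Vat1 at 0.87, and the galanin gene Gal was among its nearest 8 at 0.85. Tac2 correlated with Tacr1 at 0.73 and with Tacr3 at 0.47, and Tacr1 with Tacr3 at 0.75. These are descriptions over clusters that share sections and depth.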

How the data were processed

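UMI counts per gene and spot were used as deposited. The authors made them with Space Ranger, version 1.3.1 per the file headers and 3.1 per the submitters' processing notes, which name the genome build mm10. Spots with under 500 UMIs were left out. Spots were clustered with scanpy 1.11.5 (2000 variable genes, 30 components, 20 neighbours, Leiden resolution 0.8), without the tachykinin genes and Gpr151. Of 25 clusters, 18 were named. A name needed at least 3 of its markers among the 50 leading genes, at least 2 times as many as the next name, at least 1 among the first 10, and more there than any other name. The last condition was added after the clusters and their Tac2 values had been seen, and left 1 cluster of 107 spots, led by Slc5a7 and Slc10a4, without the name medial and extended amygdala. Regions are rebuilt from genes, not drawn on tissue images. No doublet caller was run, since spots hold several cells. UMIs were summed per section and region and fitted across all genes passing filterByExpr with edgeR 4.0.16 (TMM, robust quasi-likelihood, 3 residual degrees of freedom, Benjamini-Hochberg adjustment, two-sided, threshold 0.05). The section was the replicate, so p-values measure the spread between 2 sections per age. Each SE was worked back from the edgeR F statistic, as the absolute log2 difference over its square root. It thus rests on a spread shared by all ages and moderated over genes. DESeq2 1.42.0 was an alternative. Members, lists and markers were chosen with earlier results of these data known. Named genes were the members, the pathway list, up to 4 examples per neuron list, and the nearest 8 genes by cluster correlation among those with at least 5 CPM. Other genes, the Chrna3 split and the cortical comparisons were chosen after values were seen. Counts simulated from the whole-section edgeR fit, with no effect of slide or plane of cutting, were put through the same fit. Their outcome is not given here, and they could not check the fits of single regions.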

Additional observations from a re-analysis of the deposited data

How the results depend on the processing

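Of 153 alternatives, 4 turned the direction of their result and 16 moved it by more than the SD between sections. The other 133 were counted as the same. For the Tacr1 and Tacr3 positive-spot tests, 9 alternatives each were so counted without a comparison, and their exact permutation p cannot go below 0.067. The rest kept the direction and, where tested, the side of the threshold, or moved an untested value by less than that SD. That SD is wide in small regions. Tac2 between old and young in whole sections (0.83) was 0.58 with equal spot numbers per cluster and 0.77 to 0.90 without 1 section. In Gpr151 spots (0.57) it was 0.86 with slide as a block, 0.16 and 0.14 with at least 2 or 5 Gpr151 UMIs, 1.33 by Chrna3, Chrnb4, Nwd2 and Pou4f1, 0.39 without Nwd2, 0.17 in the habenula-like cluster and 0.47 to 0.67 without 1 section. Without 1 section it was -1.81 to 0.57 in hypothalamus (0.57 without young 2, 0.52 without old 1, -1.81 without old 2), 0.25 to 2.22 in the Baiap3-led cluster and 0.52 to 0.96 outside Gpr151 spots. With slide as a block hypothalamus gave -1.13. Without 1 section Tacr1 gave -0.075 to 0.55 and Tacr3 -0.12 to 0.60, both negative without young 2.

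The difference in Tac2-positive spots (3.24 points) was 2.27 at 2 UMIs, 2.11 thinned to 5000 UMIs, 1.72 unthinned and 2.81 to 3.67 without 1 section. UMIs per positive spot gave 1.21 to 1.43 without 1 section. The exact permutation p was 0.333 to 1 for Tacr1 and 0.0667 to 0.267 for Tacr3 without 1 section, and for Tacr3 0.0667 at 2 UMIs or thinned to 5000 UMIs. The Chrna3-rich ratio (1.07) was 1.18 at 3 and 1.29 at 10 UMIs, and 1.04 to 1.11 without 1 section (1.04 without young 1, 1.11 without young 2). The cause of these shifts was not tested.

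The 29 calls in whole sections became 179 in DESeq2, 113 with no filter, 7 with slide as a block, 44 with equal spots and 6 to 75 without 1 section. The 27 calls in Gpr151 spots became 295 with no filter, 6 at 2 UMIs and 14 at 5 UMIs. With the replicate number as a block, Tac2 gave 0.83 and the calls were 21. Replicate numbers follow the slide in middle and old sections, whereas both young sections were on slide 1. Differences between replicates 1 and 2 correlated at -0.000841 for young and middle, 0.184 for young and old and 0.336 for middle and old. The analysis planned for medial and extended amygdala was not run under that name: a naming condition added after the clusters were seen left the Slc5a7-led cluster unnamed, and the Baiap3-led cluster was used instead. Regions with few UMIs, such as the 10 habenula-like spots of young 1, limit precision.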
